A study of Mus musculus with 8 samples.

Results

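The genes described here encode 10 sensory neuropeptide precursors, Calca, Calcb, Tac1, Adcyap1, Gal, Cartpt, Sst, Nppb, Npy and Vip. They were taken by gene symbol from a table of read counts for 24421 genes in mouse dorsal root ganglia (DRG), and 9 of the 10 had enough counts to be tested. Ganglia of lumbar levels L3 to L5 on the side of the left hind paw were collected from C57BL/6J mice, and the labels mark all 8 libraries as WT. The 0d group came from naive, untreated mice. The 1d, 3d and 30d groups were taken 1, 3 and 30 days after 20 µl of 1% carrageenan, a seaweed polysaccharide that inflames tissue, had been injected into that paw. The design text gives an age of 8 weeks at injection, the study's methods give a wider range that starts there, and no separate age was found for the 0d mice. There were 2 libraries per time point, each a pool of 2 to 3 mice, so a replicate is a pool and not 1 animal. No group was injected with vehicle, and at 30d the time since injection cannot be told apart from the greater age of the mice. The labels name the cell type as DRG neurons, but the ganglia were dissected whole and the libraries held glial, blood and muscle transcripts as well.

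Sensory neurons make neuropeptides as larger precursor proteins, which are cut by prohormone convertases, trimmed, amidated and stored in dense-core vesicles. The peptides are released from the spinal terminals, where they act on dorsal horn neurons, and from the peripheral endings, where calcitonin gene-related peptide (CGRP) widens blood vessels and substance P makes them leak. CGRP and substance P mark the peptidergic class of nociceptors. Natriuretic polypeptide b and somatostatin mark a small class of itch neurons, and galanin and neuropeptide Y are known for their rise in DRG neurons after nerve injury.

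The libraries held 44123208 to 73580338 counts. Replicates differed by more than counting error (chi-square over its degrees of freedom, 7.1 at 3d to 25 at 30d), so the spread between pools set the precision. The summed level of 16 neuronal marker genes lay between 25620 and 27360 CPM (counts scaled to library size by the TMM method) in all 8 libraries. Marker sums of other cells spread more widely, from 5400 to 10740 CPM for Schwann cells and from 18.04 to 127.1 CPM for skeletal muscle. The Schwann cell sum was highest in 0d replicate 1 and lowest in 30d replicate 1, so results were also computed without both. The lowest skeletal muscle sum was that of 30d replicate 2.

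Calca, which encodes calcitonin and alpha-CGRP, had the highest level of the 10. Per gene length its mean was 593 RPKM (counts scaled to exon length and library size), which ranked 41 among the 17328 tested genes. The count is per gene, so transcripts spliced for calcitonin and for CGRP were not separated. Tac1, the precursor of substance P and neurokinin A, followed with a mean of 188 RPKM, between 169 and 213 in the 8 libraries. Calcb, which encodes beta-CGRP, had 90.9 RPKM, and Adcyap1, the precursor of pituitary adenylate cyclase-activating polypeptide (PACAP), had 38.1 RPKM. The libraries of these 4 genes did not overlap in RPKM, so their order was the same in every library.

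The next genes lay close together. Gal, the galanin precursor, had a mean of 14.7 RPKM (13.5 to 17.2), and Cartpt, which encodes cocaine- and amphetamine-regulated transcript peptides, had 12.4 RPKM (9.09 to 15.9). The ranges of these neighbours overlapped, as did those of Sst, the somatostatin precursor, at 8.36 RPKM (7.27 to 9.83) and Nppb, the natriuretic polypeptide b precursor, at 7.84 RPKM (6.92 to 8.81). Npy, the neuropeptide Y precursor, was lower at 0.825 RPKM, on 10 to 45 counts per library. Vip, which encodes vasoactive intestinal peptide, had 0 to 4 counts per library. That is at or near the limit of 3 counts that a count of 0 allows, which is 0.041 to 0.0684 CPM over the libraries, and Vip was not tested. Such limits cover counting error only.

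**Figure D1:**
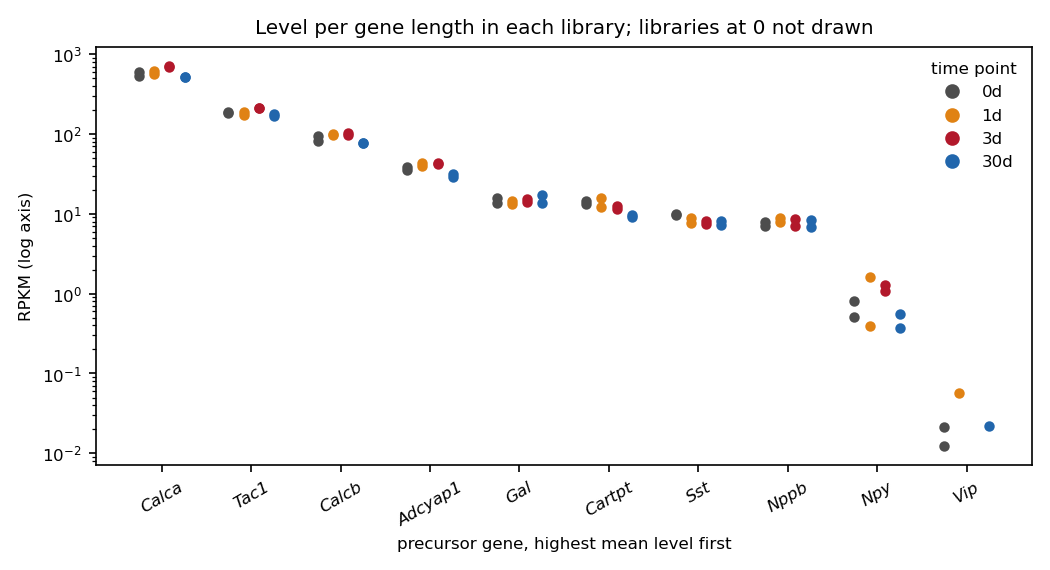
Level per gene length (RPKM, log axis) of each precursor gene in each of the 8 libraries, one point per library, coloured by time point. Calca lies between 518 and 711 RPKM and Nppb between 6.92 and 8.81, while Vip, with at most 4 counts, lies below 0.1 in every library and is not drawn where it is at 0.

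Calca and Calcb lie beside each other on mouse chromosome 7, on opposite strands, at 114631478-114636357 and 114718643-114723365 in mm10. Their sequences are alike, but only 1.27% of the 50-base words of the longest Calca transcript occur in Calcb, and multimapping reads were left out of the counts. The exons of none of the 10 genes overlapped those of another gene in the table. The other genes are on chromosomes 6 (Tac1, 7555071-7562973, and Npy, 49822729-49829505), 17 (Adcyap1, 93199422-93205489), 19 (Gal, 3409917-3414457), 13 (Cartpt, 99898483-99900683), 16 (Sst, 23889581-23890844), 4 (Nppb, 147985788-147987205) and 10 (Vip, 5639218-5647614).

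Neuropeptide promoters are textbook examples of cAMP-responsive genes, and Sst is the gene in which the cAMP response element was described. The 250 bases before the RefSeq start (GRCm38.p6, the assembly behind mm10) of 9 of the 10 genes were searched on both strands for 4 short motifs. The full element TGACGTCA was found in 2 of 9, Sst and Cartpt, and in 1.55% of all 32841 promoter windows of that length. Its core TGACG, which lies on both strands of the full element, was found in 6 of 9, Calca, Tac1, Sst, Adcyap1, Vip and Cartpt, and in 17.8% of all windows. The AP-1 motif TGANTCA was found in 0 of 9 and in 6.75% of all windows, and the TATA motif TATAAA in 3 of 9, Nppb, Adcyap1 and Vip, and in 12.4% of all windows. A match is a description of letters and was not tested as a binding site. The windows of Calca and Tac1, whose levels changed with time, are shown beside those of Sst and Cartpt, which hold the full element and were not called by edgeR in any comparison. Capitals mark every core, read 5′ to 3′ on the strand of the gene.
Calca, chr7:114636358-114636607, minus strand: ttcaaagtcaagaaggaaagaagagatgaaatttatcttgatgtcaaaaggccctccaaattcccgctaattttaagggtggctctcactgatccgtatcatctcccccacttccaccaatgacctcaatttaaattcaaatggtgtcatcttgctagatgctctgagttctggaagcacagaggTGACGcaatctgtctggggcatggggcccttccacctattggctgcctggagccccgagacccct
Tac1, chr6:7554811-7555060, plus strand: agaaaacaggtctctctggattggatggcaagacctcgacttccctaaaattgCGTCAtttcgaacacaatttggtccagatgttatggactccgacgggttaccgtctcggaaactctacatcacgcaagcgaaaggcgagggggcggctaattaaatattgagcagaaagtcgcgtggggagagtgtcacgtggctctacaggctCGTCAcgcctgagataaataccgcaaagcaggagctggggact
Sst, chr16:23890845-23891094, minus strand: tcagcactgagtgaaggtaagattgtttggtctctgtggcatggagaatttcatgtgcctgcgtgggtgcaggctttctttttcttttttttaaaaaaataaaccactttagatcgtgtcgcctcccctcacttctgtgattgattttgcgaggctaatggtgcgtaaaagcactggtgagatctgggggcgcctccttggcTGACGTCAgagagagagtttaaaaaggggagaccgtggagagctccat
Cartpt, chr13:99900684-99900933, minus strand: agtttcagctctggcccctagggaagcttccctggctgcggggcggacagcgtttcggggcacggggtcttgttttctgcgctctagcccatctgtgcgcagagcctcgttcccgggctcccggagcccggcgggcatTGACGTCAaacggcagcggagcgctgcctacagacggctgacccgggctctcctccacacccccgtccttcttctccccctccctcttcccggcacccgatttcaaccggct
In Calca the core begins 65 bases before the start, and in Sst the full element begins 48 bases before it. Tac1 has its cores in the reverse orientation, the nearer one 43 bases before the start.

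Calca rose by 3d and was lower again at 30d. Its level was 798.1 and 892.3 CPM in the 0d libraries, 864.5 and 933.2 in those of 1d, 1039 and 1076 in those of 3d, and 790.8 and 784.2 in those of 30d. Both 3d libraries lay above all 6 others, and the 0d and 1d libraries overlapped. Calca was 1.25-fold higher at 3d than at 0d, with a log2 fold change of 0.32 ± 0.05 (SE) and an adjusted p of 0.0237 by edgeR's quasi-likelihood test with Benjamini-Hochberg adjustment, as for all adjusted p-values below. It was 25.5% lower at 30d than at 3d, with a log2 fold change of -0.43 ± 0.05 and an adjusted p of 0.00201. The 3d vs 1d difference of 0.23 ± 0.05 on the log2 scale had an adjusted p of 0.111. At 1d the log2 fold change against 0d was 0.09 and at 30d it was -0.10, with adjusted p-values of 1 and 0.451.

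The 3d vs 0d call of Calca depended on single libraries and on robust estimation. Its adjusted p was 0.0547 without robust estimation, 0.0845 without 0d replicate 1, 0.172 without 3d replicate 1 and 0.453 without 3d replicate 2, with log2 fold changes between 0.25 and 0.35 in these fits. The 30d vs 3d call of Calca was kept under all 18 alternatives, with adjusted p-values of at most 0.043 and log2 fold changes between -0.45 and -0.39. Calca made up 68% of the summed CPM of the 10 precursors in 0d replicate 1 and 71.1% in 3d replicate 2, the lowest and the highest share of the 8 libraries.

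Calcb followed Calca at 30d but had its 1d and 3d libraries at one level. Its level was 78.53 and 90.35 CPM in the 0d libraries, 92.24 and 97.11 in those of 1d, 93.62 and 98.25 in those of 3d, and 74.7 and 74.52 in those of 30d. Both 30d libraries were the lowest of the 8, and every 1d and 3d library lay above both 0d libraries. Calcb was 22.2% lower at 30d than at 3d, with a log2 fold change of -0.36 ± 0.06 and an adjusted p of 0.0128. It was 21.2% lower at 30d than at 1d, with a log2 fold change of -0.34 ± 0.06 and an adjusted p of 0.0213. Against 0d the log2 fold changes were 0.16 at 1d, 0.18 at 3d and -0.18 at 30d, and none passed the test, with adjusted p-values of 0.902, 0.541 and 0.275. The 30d vs 3d call was lost without 3d replicate 1 (adjusted p = 0.139) or 3d replicate 2 (0.276), and the 30d vs 1d call without 1d replicate 2 (0.283), 3d replicate 1 (0.0563), 3d replicate 2 (0.0569) or 30d replicate 2 (0.0716), under scaling to neuronal markers (0.0544) and without robust estimation (0.0551). The ratio of Calca to Calcb in RPKM was lowest in the 1d libraries, at 5.96 and 6.11, and highest in the 3d libraries, at 7.05 and 6.97. This ratio was not tested.

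Tac1 was at its highest at 3d. Its level was 190.2 and 195.1 CPM in the 0d libraries, 179.9 and 194.7 in those of 1d, 216.1 and 220.1 in those of 3d, and 174.5 and 184.3 in those of 30d. Both 3d libraries lay above all 6 others, which spanned 174.5 to 195.1 CPM. Tac1 was 17.8% lower at 30d than at 3d, with a log2 fold change of -0.28 ± 0.05 and an adjusted p of 0.011. The difference was 0.22 ± 0.05 for 3d vs 1d and 0.18 ± 0.05 for 3d vs 0d on the log2 scale, with adjusted p-values of 0.0827 and 0.264. The 30d group differed from 0d by a log2 fold change of -0.10 and from 1d by -0.06, with adjusted p-values of 0.404 and 0.629. The 30d vs 3d call of Tac1 was lost without 3d replicate 1 (adjusted p = 0.169) or 3d replicate 2 (0.24).

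Adcyap1 had the largest fall of the called precursors at 30d. Its level was 73.22 and 81.66 CPM in the 0d libraries, 84.02 and 90.23 in those of 1d, 91.81 and 88.52 in those of 3d, and 66.63 and 61.39 in those of 30d. As for Calcb, the 30d libraries were the lowest of the 8 and the 1d and 3d libraries lay above both at 0d. Adcyap1 was 29% lower at 30d than at 3d, with a log2 fold change of -0.49 ± 0.06 and an adjusted p of 0.00201. It was 26.5% lower at 30d than at 1d, with a log2 fold change of -0.44 ± 0.06 and an adjusted p of 0.00358. The 30d vs 0d log2 fold change was -0.28 ± 0.06 with an adjusted p of 0.121, and it passed the threshold in 4 of the 18 alternatives. The 1d and 3d log2 fold changes against 0d were 0.17 and 0.22, with adjusted p-values of 0.882 and 0.377. Without 3d replicate 1 the 30d vs 3d call was lost (adjusted p = 0.0718), and without 1d replicate 2 the 30d vs 1d call (0.0612).

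**Figure D2:**
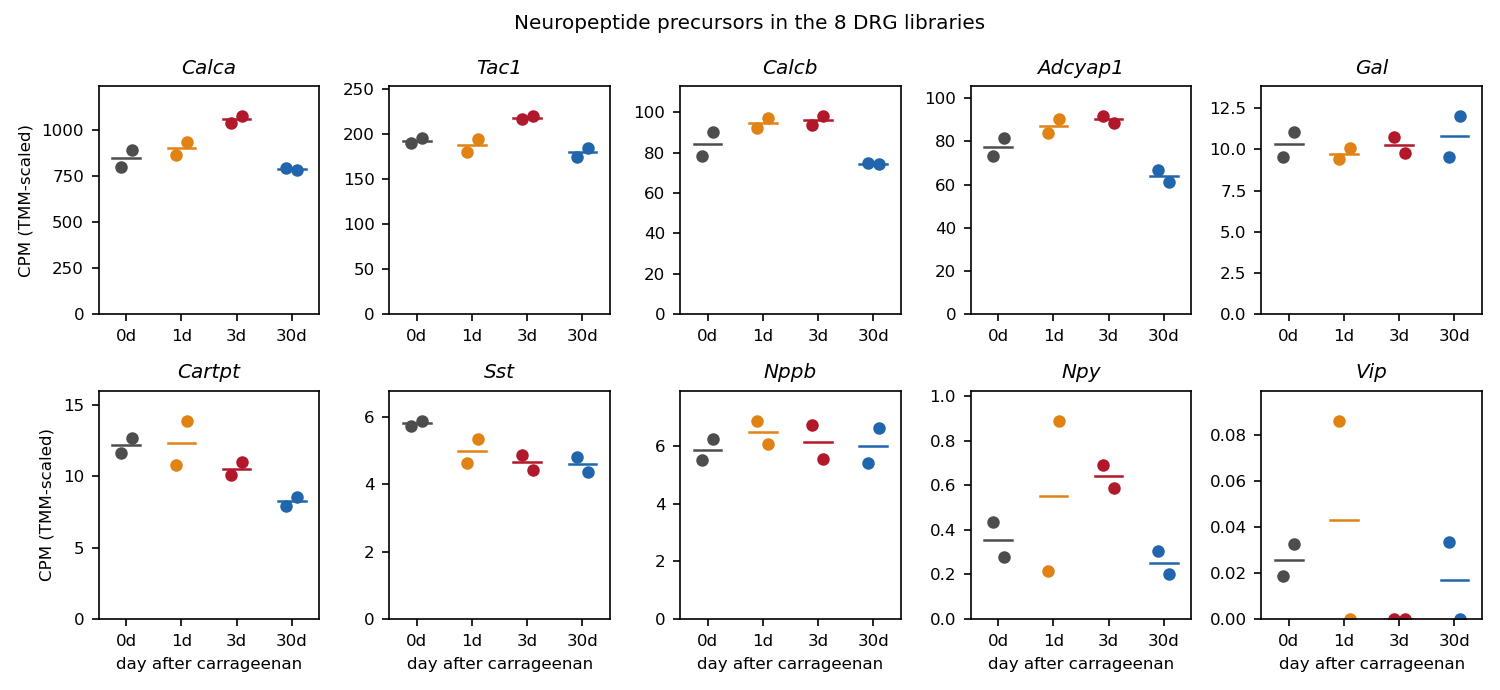
TMM-scaled CPM (vertical axes from 0) of the 10 precursors at 0d, 1d, 3d and 30d after carrageenan, each point a library and each bar the mean of 2. The 3d points of Calca and Tac1 and the 0d points of Sst lie above all other libraries of the same gene. The 30d points of Calca, Calcb, Adcyap1 and Cartpt lie below all other libraries of the same gene.

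The remaining precursors did not pass the edgeR test in any comparison. Cartpt had 11.62 and 12.72 CPM in the 0d libraries, 10.81 and 13.91 in those of 1d, 10.09 and 11 in those of 3d, and 7.95 and 8.554 in those of 30d. Its 30d libraries were the lowest of the 8. The 30d log2 fold change of Cartpt was -0.56 ± 0.14 against 0d, -0.58 ± 0.14 against 1d and -0.35 ± 0.14 against 3d, with adjusted p-values of 0.132, 0.101 and 0.284. The 30d vs 1d difference was larger than that of the called Adcyap1, on 472 to 804 counts per library against 3874 to 6471. DESeq2 gave adjusted p-values of 0.0399 for 30d vs 0d and 0.0244 for 30d vs 1d.

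Sst had its highest libraries at 0d, in the untreated mice. It had 5.727 and 5.885 CPM in the 0d libraries, 4.617 and 5.336 in those of 1d, 4.876 and 4.432 in those of 3d, and 4.817 and 4.356 in those of 30d. Every library after injection lay below both 0d libraries, but the log2 fold changes of -0.22 ± 0.17, -0.32 ± 0.17 and -0.34 ± 0.17 at 1d, 3d and 30d had adjusted p-values of 1, 0.888 and 0.431. Gal lay between 9.41 and 12 CPM and Nppb between 5.41 and 6.88 CPM. Neither had a pair of time points whose libraries did not overlap, and their adjusted p-values over the 6 comparisons were at least 0.697 for Gal and 0.839 for Nppb.

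Npy had 23 and 17 counts in the 0d libraries, 10 and 39 in those of 1d, 45 and 43 in those of 3d, and 18 and 14 in those of 30d. In CPM, 1d replicate 2 was the highest library at 0.889 and 30d replicate 2 the lowest at 0.2, and the lowest adjusted p of Npy over the 6 comparisons was 0.44. Npy is also made by sympathetic neurons. Of the listed markers of these neurons, Dbh had 0 to 7 counts per library, Hand2 0 to 8, Phox2a 4 to 20 and Slc6a2 6 to 93, while Chrna3 had 482 to 928 and Slc18a2 246 to 521. The summed level of the list was 18.03 to 18.63 CPM at 0d, 18.36 to 19.63 CPM at 1d, 20.1 to 20.16 CPM at 3d and 17.43 to 18.29 CPM at 30d, and their part in the Npy values was not tested. Vip had 1 and 2 counts in the 0d libraries, 4 and 0 in those of 1d, 0 and 0 in those of 3d, and 2 and 0 in those of 30d.

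Counted over the 9 tested precursors, the comparison of 30d with 3d held most of the calls. There 4 of 9 were called, all lower at 30d, against 0.935% of all tested genes called in either direction and 0.727% called lower. The median log2 fold change of the 9 was -0.35 beside 0.00 for all tested genes, and 6 of 9 had both 30d libraries below both 3d libraries, against 23.5% of all genes. The count of called precursors was 1 without 3d replicate 1 and 2 without 3d replicate 2, where the calls over all genes dropped from 162 to 12 and 22. In 30d vs 1d, 2 of 9 were called, both lower, against 0.571% of all genes in either direction and 0.514% lower, and the median was -0.19. That count was 0 without 1d replicate 2. The time effect over all 4 groups was called for 4 of 9, Calca, Calcb, Tac1 and Adcyap1, with adjusted p-values of 0.00399, 0.0206, 0.027 and 0.0033, against 1.02% of all genes. Without 3d replicate 1 it was called for 2 of 9 and without 3d replicate 2 for 1.

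Against 0d there was 1 call. In 3d vs 0d it was Calca, 1 of 9 beside 0.219% of all genes called in either direction and 0.19% called higher, with a median of 0.18 over the 9 and 5 of 9 lying apart on the higher side against 19.9% of all genes. Another 2 of 9, Sst and Cartpt, lay apart on the lower side, against 19.6% of all genes. In 1d vs 0d edgeR called 0 of 9, against 0.346% of all genes, while 2 of 9 had an unadjusted p under 0.05, beside 774 of all 17328 genes, and DESeq2 also called 0, with 105 over all genes. In 30d vs 0d edgeR called 0 of 9, against 0.0231% of all genes. There 4 of 9 had an unadjusted p under 0.05, beside 2124 of all 17328 genes, DESeq2 called 2 (Adcyap1 and Cartpt) and 182 over all genes, the median was -0.18, and 6 of 9 lay apart on the lower side against 20.2% of all genes. In 3d vs 1d edgeR called 0 of 9, against 0.289% of all genes, with 2 of 9 at an unadjusted p under 0.05, beside 734 of all 17328 genes, and DESeq2 calling 2 (Calca and Tac1) and 108 over all genes. Without 0d replicate 1 and 30d replicate 1, the libraries with the extreme Schwann cell sums, 1 pool was left at 0d and 1 at 30d. The spread in that fit came from the 1d and 3d pools alone. Their chi-square over its degrees of freedom was 8.45 and 7.1, against 15.1 at 0d and 25 at 30d. Counts of calls from that fit are therefore not set beside the shares above. Over all 18 alternatives, this one included, the 30d vs 3d log2 fold change was -0.45 to -0.39 for Calca and -0.40 to -0.32 for Calcb. It was -0.32 to -0.24 for Tac1 and -0.56 to -0.44 for Adcyap1. All 6 comparisons share libraries, so their counts are not independent of each other.

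**Figure D3:**
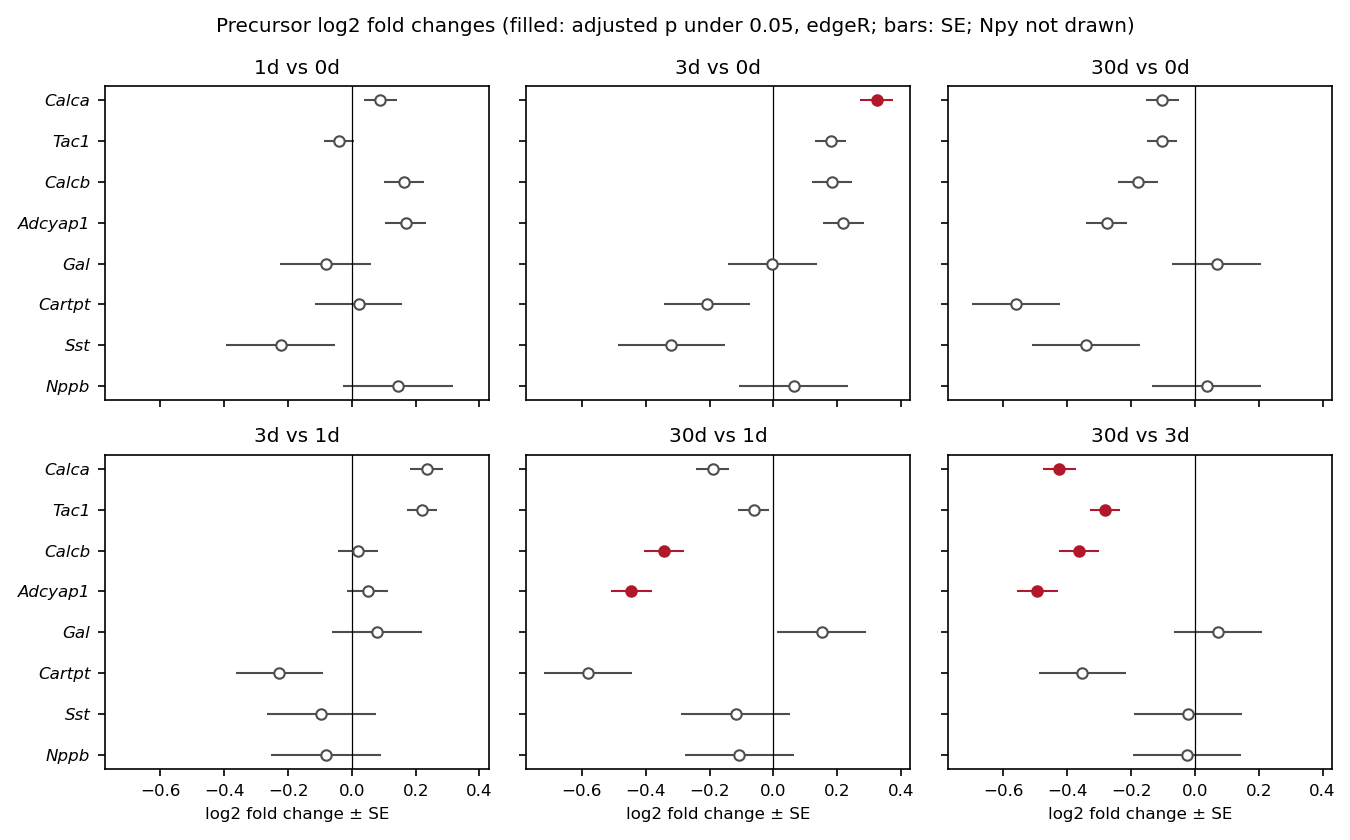
Log2 fold change (horizontal axis) with its standard error for 8 precursors in the 6 comparisons, filled where the edgeR adjusted p is under 0.05. The 30d vs 3d panel holds 4 filled points, at -0.43 for Calca, -0.28 for Tac1, -0.36 for Calcb and -0.49 for Adcyap1, and Npy, with at most 45 counts per library, is left out.

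In bulk ganglia, fewer cells of a type and less RNA per cell cannot be told apart. The neuronal markers as a group moved less than the called precursors. Their sum was 26760 and 27080 CPM at 3d and 25620 and 26250 CPM at 30d. In 30d vs 3d, 1 of 16, Gap43, was called, against 0.935% of all tested genes. Log2 fold changes were negative for 12 of 16 in each comparison of 30d with another time point. The 30d vs 3d median was -0.04 beside 0.00 for all tested genes. Per 100 counts on these markers, Calca had 3.836 and 4.022 counts at 3d and 3.086 and 2.987 at 30d. With libraries scaled to the neuronal markers, 4 of 9 precursors were called in 30d vs 3d, and the log2 fold change of Adcyap1 was -0.46 and that of Calca -0.39. Under that scaling the calls in 30d vs 1d went from 2 to 1, without Calcb, and the calls over all genes from 162 to 90 in 30d vs 3d and from 99 to 46 in 30d vs 1d. Schwann cell markers had lower sums at 30d, 5400 to 7636 CPM against 8891 to 8956 CPM at 3d, as did satellite glia markers, 2619 to 2712 against 3053 to 3057. Red blood cell markers had higher sums at 30d, 276.4 to 515.3 CPM against 180.6 to 188.9, as did macrophage markers, 66.78 to 70.02 against 60.13 to 62.11, and fibroblast and endothelium markers, 848.1 to 922.1 against 822.2 to 827.6. The sums of neutrophil, skeletal muscle and spinal cord markers overlapped between 3d and 30d. The part of these markers in the precursor results was not tested.

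Markers of the neuron classes that carry these peptides were compared as well. Over all tested genes, 0.346% were called in 1d vs 0d, 0.219% in 3d vs 0d, 0.571% in 30d vs 1d and 0.935% in 30d vs 3d. Of 7 peptidergic nociceptor markers, 1 was called in 30d vs 3d, Smr2, which fell from 7.314 and 6.402 CPM to 4.11 and 3.228, a log2 fold change of -0.90 ± 0.18 with an adjusted p of 0.0271. In 30d vs 3d, 4 of the 7 had negative and 3 positive log2 fold changes, with a median of -0.12. The sum of the 7 was 782.8 to 794.8 CPM at 3d and 745.9 to 752.9 CPM at 30d. Non-peptidergic nociceptor markers had mostly negative log2 fold changes at 30d, in 6 of 7 against 3d with a median of -0.09 and in 7 of 7 against 1d with a median of -0.12. Among 7 markers of the Nppb and Sst class of itch neurons, Ptgir, a prostacyclin receptor, was called in 30d vs 3d. It had 62.86 and 61.79 CPM in the 0d libraries, 83.76 and 77.16 in those of 1d, 87.24 and 87.11 in those of 3d, and 63.3 and 60.6 in those of 30d. Its adjusted p-values were 0.00577 for 1d vs 0d, 0.00322 for 3d vs 0d, 0.00408 for 30d vs 1d and 0.000621 for 30d vs 3d. The precursors of that class, Nppb and Sst, were not called in these comparisons. Markers of large-fibre and cold neurons had sums of 521.2 to 530.6 CPM at 3d and higher sums of 547.3 to 547.9 CPM at 30d. Of these markers, Pvalb, a calcium-binding protein of proprioceptors, was called in 3d vs 0d, with a log2 fold change of -0.33 ± 0.06 and an adjusted p of 0.0237.

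Genes that process and store the peptides were measured as well. Of 20 genes of peptide processing and dense-core vesicles, all tested, 2 were called in 30d vs 3d, both lower, against 0.727% of all tested genes called lower, and 6 had an unadjusted p under 0.05, beside 2254 of all 17328 genes. In the 5 other comparisons edgeR called 0, and 1 to 5 had an unadjusted p under 0.05, beside 734 to 2124 of all genes. DESeq2 called 4 in 30d vs 3d (Scg2, Scg3, Syt4 and Vgf), 3 in 3d vs 0d (Scg2, Syt4 and Vgf), 3 in 30d vs 1d (Scg3, Syt4 and Vgf) and 0 in the rest. Over all genes DESeq2 called 351, 108 and 222 in these 3 comparisons. In 30d vs 3d, 14 of the 20 had negative and 6 positive log2 fold changes, with a median of -0.03 beside 0.00 for all tested genes. Scg2, the secretogranin II precursor, had 316.1 and 337.5 CPM in the 0d libraries, 332.7 and 343.2 in those of 1d, 382.3 and 375.2 in those of 3d, and 309.9 and 307.5 in those of 30d. Its 3d libraries were the highest of the 8, as for Calca and Tac1, and its 30d vs 3d log2 fold change was -0.30 ± 0.04 with an adjusted p of 0.00368. Syt4, a vesicle synaptotagmin, was lower by -0.23 ± 0.04 on the log2 scale with an adjusted p of 0.022.

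Vgf, a granin-like precursor of several peptides, had the largest log2 fold change of the list in every comparison but 3d vs 1d. There it was 0.29 for Vgf and -0.33 for Qpct. It had 137.9 and 163.8 CPM in the 0d libraries, 196.6 and 204.3 in those of 1d, 243 and 247.5 in those of 3d, and 128.4 and 96.87 in those of 30d. The 4 groups did not overlap, with 30d lowest and 3d highest. The log2 fold change was 0.70 ± 0.16 for 3d vs 0d and -1.12 ± 0.16 for 30d vs 3d, and neither passed the edgeR test, with adjusted p-values of 0.466 and 0.0778, while DESeq2 called both. The enzymes that cut and finish the peptides did not pass it either. In 30d vs 3d, Pcsk1 and Pcsk2, the prohormone convertases, had log2 fold changes of 0.00 and -0.06, Cpe, the carboxypeptidase with the highest level of the list at 359 RPKM, had -0.04, and Pam, the amidating enzyme, had -0.10, with adjusted p-values of 0.999, 0.506, 0.758 and 0.342.

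**Figure D4:**
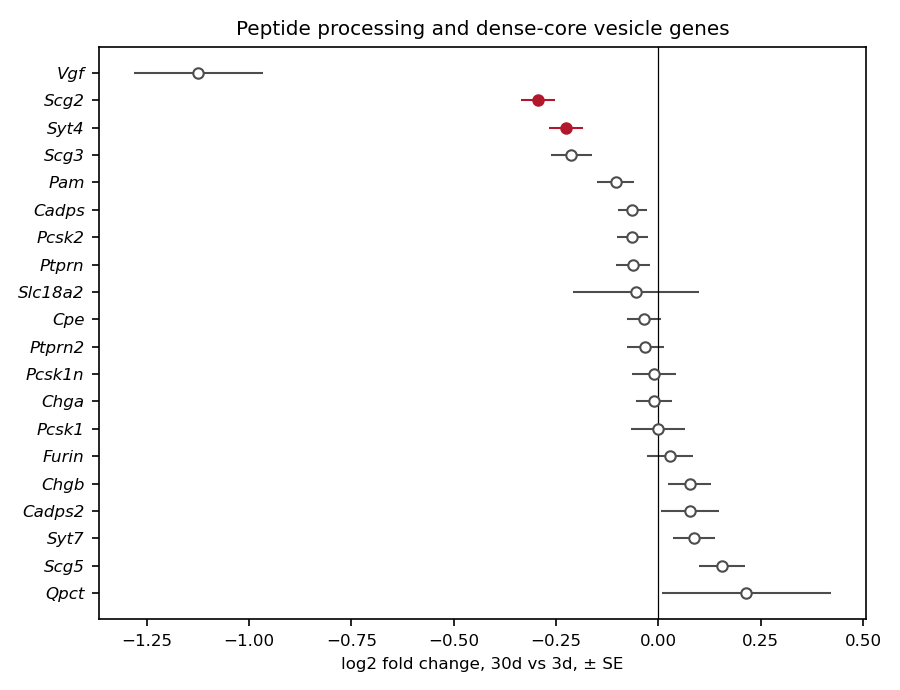
Log2 fold change of 30d vs 3d (horizontal axis, with standard error) for 20 genes of peptide processing and dense-core vesicles, filled where the edgeR adjusted p is under 0.05. Scg2 at -0.30 and Syt4 at -0.23 are filled, and Vgf at -1.12 lies farthest from 0 without passing the test.

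Receptors were listed as well. Of 26 listed receptor genes 22 were tested, and edgeR called 0 in all 6 comparisons, with 1 to 6 at an unadjusted p under 0.05, beside 734 to 2254 of all 17328 genes. DESeq2 called 1 in 3d vs 1d (Npy1r) and 1 in 30d vs 3d (Ramp2), beside 108 and 351 over all genes. Their summed level stayed between 286.6 and 306.8 CPM. The gene with the highest level was Npr2, at 45.6 RPKM and 161.7 to 173.5 CPM over the 8 libraries, a natriuretic peptide receptor that binds chiefly C-type natriuretic peptide, which none of the 10 precursors gives. Tacr1, the substance P receptor, had 0.06 RPKM, and its log2 fold change of 1.94 ± 0.88 for 3d vs 0d had an adjusted p of 0.808.

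Other precursors and the enzymes that break peptides down gave no calls by edgeR. Of 33 other neuropeptide precursors 18 were tested and 0 were called in the 6 comparisons by edgeR or DESeq2, with 0 to 6 at an unadjusted p under 0.05. The highest was Nmb, the neuromedin B precursor, at 133 RPKM, with 82.45 to 102.1 CPM over the libraries. All 11 peptide-degrading enzymes were tested and edgeR called 0, with 0 to 4 at an unadjusted p under 0.05, the 4 in 30d vs 3d. DESeq2 called Lnpep in 30d vs 0d, 30d vs 1d and 30d vs 3d, beside 182, 222 and 351 over all genes. The one with the highest level was Ide, insulin-degrading enzyme, at 25.3 RPKM.

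Genes known to rise after nerve injury were set beside Gal and Npy, which belong to the same response. Of 18 such genes, 1 was called in 3d vs 0d and 1 in 30d vs 3d by edgeR, against 0.219% and 0.935% of all tested genes, and 0 in the other comparisons, in which 1 to 6 had an unadjusted p under 0.05, beside 734 to 2124 of all 17328 genes, and DESeq2 also called 0. In 3d vs 0d 6 and in 30d vs 3d 9 of the 18 had an unadjusted p under 0.05, beside 1030 and 2254 of all genes. DESeq2 called Cacna2d1 in 3d vs 0d, and Gap43 and Ecel1 in 30d vs 3d, where Ecel1 had an edgeR log2 fold change of -1.76 ± 0.43 and an adjusted p of 0.0844. Cacna2d1, a calcium channel subunit, had 222 and 230.2 CPM at 0d and 265.8 and 266 at 3d, a log2 fold change of 0.23 ± 0.04 with an adjusted p of 0.0237. Gap43, a growth cone protein that is also on the list of neuronal markers, had 204.6 and 202.4 CPM at 3d and 173.7 and 167 at 30d. Its log2 fold change was -0.26 ± 0.05 with an adjusted p of 0.0213. In 30d vs 3d, 16 of the 18 had negative log2 fold changes, with a median of -0.18 beside 0.00 for all tested genes. In 3d vs 0d, 14 of the 18 were positive with a median of 0.14, and in 30d vs 0d 13 were negative with a median of -0.13. Their sum was 1290 to 1333 CPM at 0d, 1349 to 1355 at 1d, 1443 to 1447 at 3d and 1318 to 1322 at 30d. Sprr1a, which is strongly induced in cut sensory neurons, lay between 0.2527 and 3.701 CPM.

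The profiles of the 9 tested precursors over the 8 libraries were compared as the root mean square difference of their centred log2 CPM, a description with no test. Calcb and Adcyap1 were the closest pair at 0.07, followed by Calca and Tac1 at 0.08 and Calca and Calcb at 0.08. Among all tested genes, the 3 nearest to Adcyap1 were 2310057M21Rik (0.05), Serpina3g (0.05) and Calcb (0.07). Serpina3g belongs to a family of near-identical paralogs, and reads that mapped to several of them were left out of its count. The 3 nearest to Cartpt were Hbegf, Nbeal1 and Zfp78, at 0.10 to 0.11. The 3 nearest to Npy were Gsdma, Ackr2 and C530044C16Rik, at 0.23 to 0.32, which are larger distances on few counts.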

How the data were processed

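Libraries were made from total RNA of pooled L3 to L5 ganglia with a TruSeq kit and sequenced on an Illumina instrument. The authors used cutadapt 2.10 for trimming, STAR 2.7.5a for alignment to mm10 and featureCounts 2.0.1 for counting on UCSC genes, unstranded, giving a read pair to every gene it overlapped and leaving out multimapping reads. The deposited values are raw counts per gene, and groups and replicates came from the labels.

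All 8 libraries entered 1 model whose single term was the time point (R 4.3.3, edgeR 4.0.16, limma 3.58.1). Of 24421 genes, 17328 passed filterByExpr. Scaling was by TMM, and quasi-likelihood F-tests with robust estimation gave 6 pairwise comparisons and a time effect. A gene was called at a Benjamini-Hochberg adjusted p under 0.05 over all 17328 genes. SE was taken as the absolute log2 fold change over the root of F. RPKM used the deposited gene lengths. With 2 pools per group, p-values measure the spread between pools, and a permutation test of 1 time point against another could not pass 0.05. Alternatives covered scaling, filter, tool (DESeq2 1.42.0), robust estimation, replicate block, compared groups alone, and libraries left out. Where a left-out library leaves 1 pool in a group, that pool was assumed to vary like the others.

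Named genes were the 10 precursors and, from each list, members called in any comparison, the one with the highest level and the one with the largest change against 0d. Other enzymes named in the text, and list members called by DESeq2 alone, were chosen after their values were seen. Results for some of the genes this rule names are not reported here. For the 3 precursors with the largest range of time point means, the 3 genes with the nearest profile were named. The members and lists were chosen with earlier results of these data known. Promoter sequences are from RefSeq (GRCm38.p6), where 9 of 10 genes matched.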

Additional observations from a re-analysis of the deposited data

Results flagged for a closer look

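For 4 precursors the change from 0d differed between time points. The test of that difference is the comparison of the later time point with the earlier one by edgeR's quasi-likelihood test, since the shared 0d level cancels. Between 3d and 30d the log2 difference was -0.43 for Calca, -0.36 for Calcb, -0.28 for Tac1 and -0.49 for Adcyap1. Between 1d and 30d it was -0.34 for Calcb and -0.44 for Adcyap1. In each of these genes both libraries of the later group lay below both of the earlier group. This describes the same libraries as the test and adds no separate support. Between 3d and 30d, 23.5% of all tested genes lay apart in that direction. The 30d vs 3d difference of Calca was called whichever single library was left out, and those of the 3 others were not called without 3d replicate 1. Causes were not tested.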

How the results depend on the processing

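Counts of called precursors moved with single libraries and with the tool. In 30d vs 3d the count was 4 under all 18 alternatives except 1 without 3d replicate 1, where Calca remained, and 2 without 3d replicate 2, where Calca and Adcyap1 remained, a range of 1 to 4. In 3d vs 0d the count of 1 became 0 without robust estimation and ranged from 0 to 1 when single libraries were left out. In 30d vs 1d the count of 2 became 1 under scaling to neuronal markers, 4 without a filter, 4 with DESeq2, 1 without robust estimation, 4 without 0d replicate 1 and 30d replicate 1, and 0 to 3 when single libraries were left out, with 0 without 1d replicate 2. In 30d vs 0d the count of 0 became 2 without a filter, 2 with DESeq2, 4 without 0d replicate 1 and 30d replicate 1, and 0 to 1 with single libraries left out. In 3d vs 1d the count of 0 became 2 without a filter, with DESeq2, with the compared time points fitted alone, with a gene length trend removed and without 0d replicate 1 and 30d replicate 1, and 0 to 1 with single libraries left out. The time effect count of 4 became 5 without a filter, 5 with DESeq2, 3 with a GC trend removed and 2 without robust estimation, and ranged from 1 to 4 with single libraries left out. The cause was not tested. In 1d vs 0d the count was 0 throughout. Of the log2 fold changes given for Calca, Calcb, Tac1, Adcyap1, Cartpt and Sst, none turned its sign under any alternative. The removal of trends and of 0d replicate 1 and 30d replicate 1 together were alternatives chosen after seeing the data. Without those 2 libraries, 0d and 30d hold 1 pool each. Counts from that fit, over precursors and over all genes, rest on the spread of the 1d and 3d pools alone.

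Whether replicate numbers pair the libraries was not settled. Deviations of same-numbered libraries correlated between -0.0144 and 0.0438 over the 6 pairs of time points. With the replicate block, calls over all genes nevertheless rose in each comparison. They went from 60 to 73 in 1d vs 0d, 38 to 50 in 3d vs 0d and 4 to 69 in 30d vs 0d. They also went from 50 to 77 in 3d vs 1d, 99 to 159 in 30d vs 1d and 162 to 225 in 30d vs 3d. Among the precursors, 3d vs 1d had 2 calls with the block, Calca (adjusted p = 0.0218) and Tac1 (0.0315), and 30d vs 1d had 3. The other counts of precursors were as without it.

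Over all tested genes, calls moved further. Counts over the alternatives ranged from 26 to 151 in 1d vs 0d (60 as reported), 1 to 318 in 3d vs 0d (38), 0 to 1133 in 30d vs 0d (4), 5 to 284 in 3d vs 1d (50), 46 to 1234 in 30d vs 1d (99), 12 to 1617 in 30d vs 3d (162) and 51 to 1543 for the time effect (177). DESeq2 gave 105, 108, 182, 108, 222, 351 and 481 in that order. The lowest count in 30d vs 3d was without 3d replicate 1 and the highest without 0d replicate 1 and 30d replicate 1. Scaling to neuronal markers moved the median of all genes by at most 0.0408 on the log2 scale.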
